A study of Mus musculus with 6 samples.

Results

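Imprinted genes are genes that are read from 1 parental copy only, and 47 of them were followed here in the embryonic mouse stomach. They were named from a list of known imprinted genes at 22 clusters or single loci, 24 of them expressed from the paternal copy, 22 from the maternal copy and 1, Gnas, from either copy depending on the transcript. For each gene the probe set annotated to that symbol alone with the highest mean over the 6 arrays was taken, so probe sets were chosen by their mean log2 signal, and the list itself was drawn up with the differences of some members between the groups known. This gave a value for 41 of the 47 genes, out of 19938 genes in all, and each of the 41 had 1 such probe set. Snrpn, Ube3a and Gnas were listed only in probe sets with several symbols, and H19, Zrsr1 and Slc22a3 in none of the probe sets named here, so these 6 were not analysed here.

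Total RNA came from the stomach of mid-gestation embryos at E13.5. Wild type stomachs (3 arrays) were compared with stomachs of genotype Nkx3.2Cre;R26-SmoM2 (3 arrays, called SmoM2). In the latter, Cre recombinase made where Nkx3-2 is active switches on SmoM2, a form of the hedgehog transducer Smoothened that needs no ligand, from the Rosa26 locus. Recombination is therefore limited to cells that express or expressed Nkx3-2, chiefly the mesenchyme, while each array read all cells of the organ together. In such bulk samples, fewer cells of a type and less RNA per cell cannot be told apart. The labels do not give strain or sex, whether the wild type embryos carried Cre or the unrecombined allele, or whether replicates were separate embryos, litters or pools. The p-values therefore measure the spread between these samples, and what that spread stands for is not known. The sex-linked genes given below differed within wild type, so those 3 arrays were not repeats of a single RNA.

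Imprinting is set in the germ line by DNA methylation at control regions, each of which governs a cluster of genes, and the mark is kept in the embryo by readers such as Zfp57 with Trim28 and by the maintenance methyltransferase Dnmt1. Within a cluster some genes are read from the paternal and others from the maternal copy, often with a long noncoding RNA on one of them. As a class, imprinted genes are abundant in fetal mesodermal tissue and regulate growth: genes read from the paternal copy tend to promote it and genes read from the maternal copy to restrain it. The arrays did not tell the parental copies apart, so every level below is the sum of both.

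The tissue carried the markers of the stomach. All 8 markers of stomach mesenchyme measured and all 12 of epithelium lay above 8.05, the 95th percentile of 1190 odorant and pheromone receptor genes, which served as the level of dim probe sets on the log2 scale. All 9 liver markers measured, all 6 of erythroid cells and 6 of 8 of skeletal muscle were above 8.05 too. That level therefore does not single out stomach, and RNA of neighbouring tissue may be present. The liver sum varied widely, from 8743 to 15023 in wild type and from 7803 to 15232 in SmoM2. No marker of liver, erythroid cells or skeletal muscle passed. Other cell type markers differed between the groups. Of 12 epithelial markers 7 fell and 0 rose, and their summed linear signal ran from 19818 to 21927 in wild type and from 13485 to 15128 in SmoM2. Of 10 smooth muscle markers 5 rose and 1 fell, with sums from 13243 to 14171 and from 17940 to 21194. Of 10 markers of enteric neurons and glia 4 fell, with sums from 11642 to 12964 and from 8291 to 9810, and of 8 mesothelial markers 3 fell, with sums from 9082 to 9520 and from 6657 to 7600. Of 8 mesenchymal markers Foxf1 and Foxf2 rose, with sums from 31195 to 33543 and from 34853 to 37328. The 8 did not move as a set: 5 had a positive and 3 a negative change, with a median of 0.02. Without overlap, 2 were higher and 2 lower in SmoM2. Of 9 pancreatic markers Cpa1 and Gcg fell (sums from 8339 to 11289 and from 5741 to 6179). However, 5 of the 9 had a positive change, the median change was 0.02, and Cel, Neurog3 and Ptf1a were not above 8.05. The lower pancreatic sum is therefore not a fall of the list as a whole. Of the 2 splenic markers Tlx1 fell (1857 to 1875 and 1364 to 1570). No marker of endothelium or leukocytes passed (8 of each), but their sums were lower too, from 16199 to 16379 against 13899 to 15233 and from 4244 to 4389 against 3278 to 3876. The part of these shifts in the results below was not tested. The sex-linked genes also differed within wild type, and the mean of the Y-linked genes given here was lower in SmoM2. Xist stood at 7.11, 11.94 and 11.68 in wild type 1, 2 and 3 and between 11.43 and 12.37 in SmoM2, and the Y-linked gene Eif2s3y at 10.40, 10.09 and 8.81 against 8.58 to 9.19. Uty, also Y-linked, was at 10.43, 9.75 and 9.37 in wild type and at 8.77, 8.93 and 9.24 in SmoM2, without overlap. The changes of Uty, Eif2s3y and Kdm5d were -0.87, -0.86 and -0.71, and none passed (limma adjusted p = 0.147, 0.402 and 0.388). Y-linked signal was thus partly confounded with genotype. None of the 47 genes lies on a sex chromosome.

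Of the 41 imprinted genes measured, 2 rose, 2 fell and 37 did not pass an adjusted p of 0.05 (limma, Benjamini-Hochberg over all 19938 genes). Phlda2 and Nap1l5 were higher in SmoM2, and Zim1 and Peg3, neighbours in a single cluster, were lower. That is 9.76% of the imprinted genes, beside 0.983% of all genes (0.326% higher and 0.657% lower). Since the list was drawn up with such changes known, nothing is read from that share. The median change of the 41 genes was -0.07 on the log2 scale, beside 0.0018 over all genes. Of the 41 genes, 28 had a negative and 13 a positive change; over all genes 49.2% were negative.

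**Figure D1:**
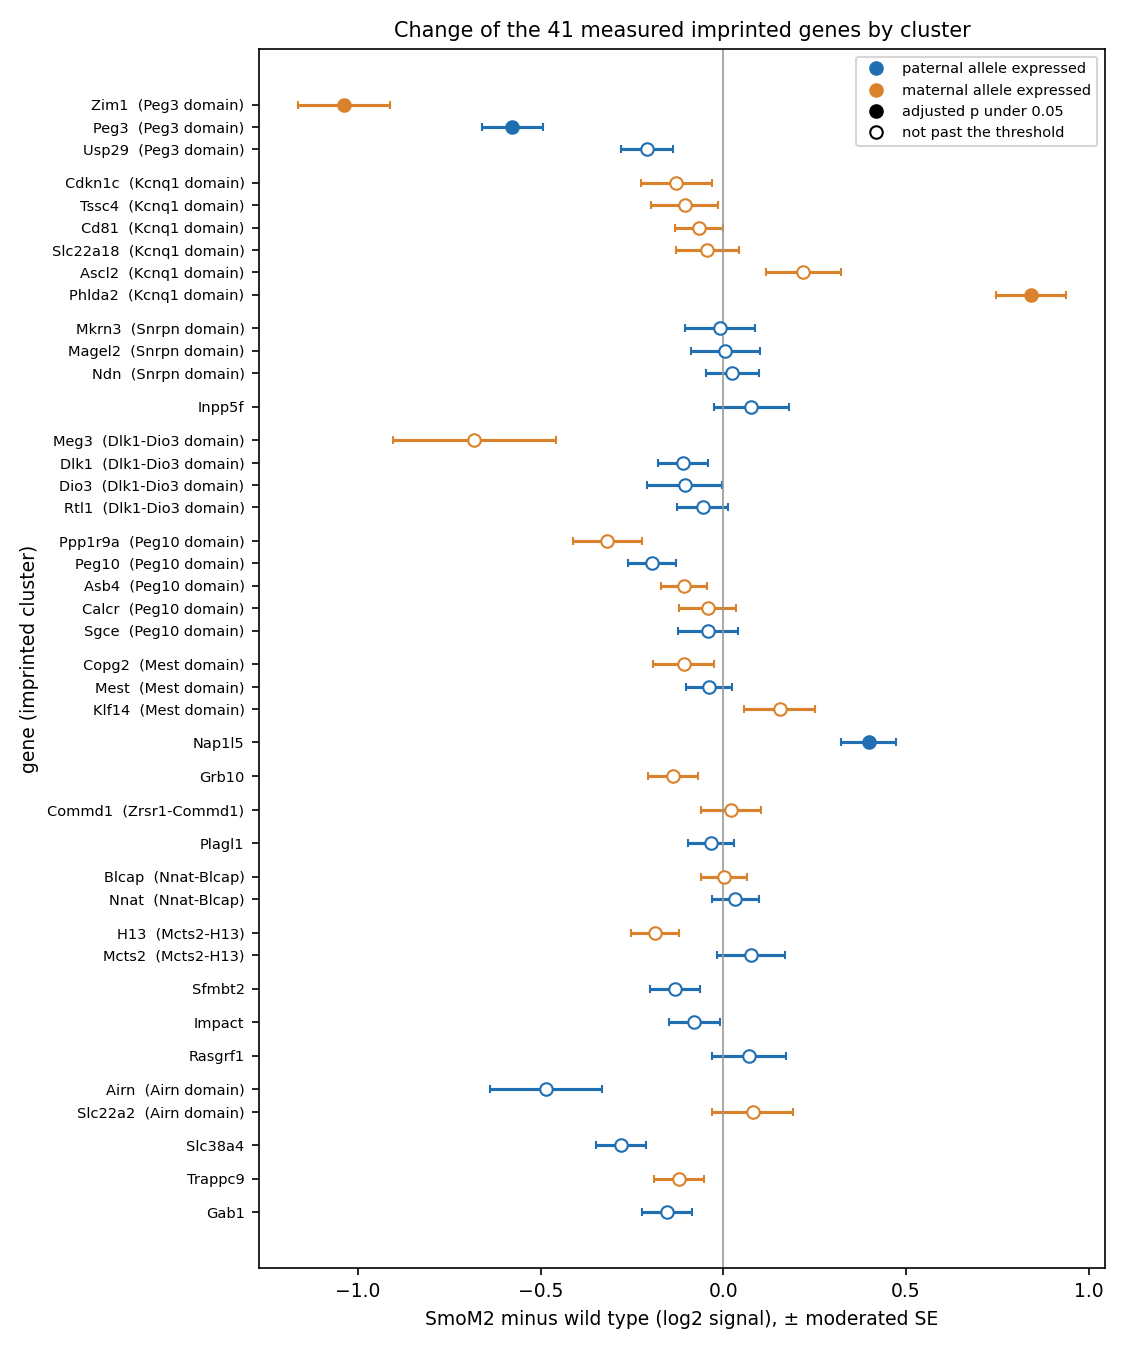
Difference between SmoM2 and wild type (log2 signal, with its moderated standard error) of the 41 measured imprinted genes, ordered by cluster and coloured by the parental copy expressed; filled points have an adjusted p under 0.05. Zim1 (-1.04) and Peg3 (-0.58) are the filled points to the left of 0 and Phlda2 (0.84) and Nap1l5 (0.40) those to the right.

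The Peg3 domain of chromosome 7 held both genes that fell. Its genes are read from opposite copies: Peg3, a zinc finger protein linked to fetal growth and maternal behaviour, and Usp29, a ubiquitin protease, from the paternal copy, and Zim1, a zinc finger gene, from the maternal copy. Zim1 was at 11.28, 11.32 and 10.96 in wild type 1, 2 and 3 and at 9.96, 10.38 and 10.10 in SmoM2 1, 2 and 3 (log2 signal). The lowest wild type value was above the highest SmoM2 value, and the means were 11.19 ± 0.20 and 10.15 ± 0.21 (SD, n = 3). The signal of Zim1 fell 2.05-fold (change -1.04, SE 0.13, limma adjusted p = 0.00755).

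Peg3 changed in the same direction as Zim1, although the opposite parental copy is read. It was at 13.17, 13.15 and 13.05 in wild type and at 12.45, 12.70 and 12.50 in SmoM2, again with no overlap. The means of 13.12 ± 0.06 and 12.55 ± 0.13 (SD, n = 3) gave a 1.49-fold lower signal (log2 change -0.58, SE 0.08, limma adjusted p = 0.0174). Usp29 was at 8.19, 8.19 and 8.25 in wild type and at 7.91, 8.08 and 8.02 in SmoM2. These values lie close to the level of dim probe sets, and the mean of SmoM2 is below it. The groups did not overlap either, but the change of -0.21 (SE 0.07) did not pass (limma adjusted p = 0.30). On SmoM2 arrays the values of both Zim1 and Peg3 were highest on SmoM2 2. Without SmoM2 3 the change of Zim1 was -1.02 and did not pass (adjusted p = 0.0655), and that of Peg3 did not pass without wild type 1, wild type 2, SmoM2 1 or SmoM2 3 (adjusted p = 0.0970, 0.0745, 0.0553 and 0.102). With Y-linked signal in the fit as a covariate, the changes were -0.83 for Zim1 and -0.51 for Peg3, and neither passed (adjusted p = 0.107 and 0.305). With wild type 3 alone against SmoM2 they were -0.81 and -0.51 (adjusted p = 0.173 and 0.486). Beside these decreases stand the lower sums of epithelial, mesothelial, neuronal, splenic, endothelial and leukocyte markers given above. The sums of mesenchymal and smooth muscle markers were higher, and the lower pancreatic sum was not a fall of that list as a whole. The same shifts stand beside the increases of Phlda2 and Nap1l5. Their part in any of these changes was not tested.

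The promoters of Zim1 and Peg3 are shown because these neighbours moved together; each runs from 250 bases before to 50 bases after the start of the gene (RefSeq, GRCm38.p6, 5′ to 3′ on the strand of the gene). Capitals mark GCGGCA, the opposite strand of TGCCGC, the hexamer bound by the imprint reader ZFP57 when methylated, in Zim1, and GGGGCCCC, the octamer of the imprinted zinc finger factor PLAGL1, in Peg3.
Zim1 promoter, chr7:6696383-6696682, minus strand: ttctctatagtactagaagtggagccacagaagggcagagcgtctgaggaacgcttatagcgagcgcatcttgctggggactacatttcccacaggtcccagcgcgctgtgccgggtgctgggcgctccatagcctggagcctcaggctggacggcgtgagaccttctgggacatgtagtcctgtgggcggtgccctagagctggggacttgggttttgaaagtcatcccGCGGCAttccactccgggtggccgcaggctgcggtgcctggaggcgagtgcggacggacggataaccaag
Peg3 promoter, chr7:6730370-6730669, minus strand: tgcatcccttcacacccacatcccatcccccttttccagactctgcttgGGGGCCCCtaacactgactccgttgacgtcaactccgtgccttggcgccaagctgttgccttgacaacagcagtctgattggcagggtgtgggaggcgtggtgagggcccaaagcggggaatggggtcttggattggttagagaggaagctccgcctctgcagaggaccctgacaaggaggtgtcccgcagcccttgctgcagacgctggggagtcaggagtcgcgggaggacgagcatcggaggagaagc

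Peg3 and Usp29 start back to back, 164 bases apart. Their promoter windows share 263 bases, and the GGGGCCCC octamer of Peg3 is the same site as the one in the window of Usp29. Usp29 lay close to the level of dim probe sets, so its change is not set beside that of Peg3.

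**Figure D2:**
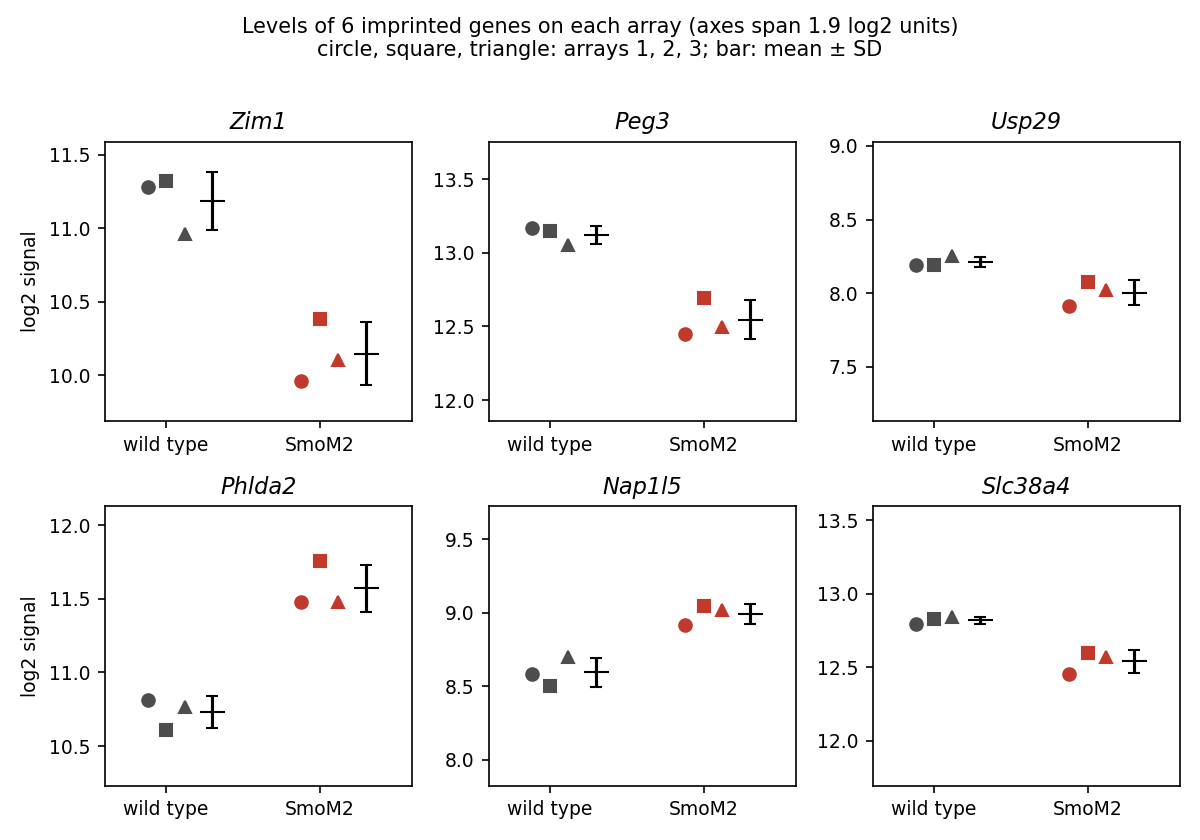
Log2 signal of Zim1, Peg3, Usp29, Phlda2, Nap1l5 and Slc38a4 on each of the 3 wild type (grey) and 3 SmoM2 (red) arrays, with the mean and SD of each group; every vertical axis spans the same range. The groups do not overlap in any of the 6 genes, and Zim1 and Phlda2 have the widest gaps between them.

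The Kcnq1 domain of chromosome 7 held the largest increase. Its coding genes are read from the maternal copy, and among them Phlda2, a small lipid-binding protein, limits the growth of the placenta. Phlda2 was at 10.81, 10.61 and 10.77 in wild type and at 11.48, 11.76 and 11.48 in SmoM2. The groups were far apart relative to their spread, with means of 10.73 ± 0.11 and 11.57 ± 0.16 (SD, n = 3). Phlda2 rose 1.79-fold (log2 change 0.84, SE 0.10, limma adjusted p = 0.00537). Dropping any single array of the 6 left the call in place, with changes from 0.75 to 0.89. With Y-linked signal in the fit as a covariate, the change was 0.84 and did not pass (adjusted p = 0.0694), and with wild type 3 alone against SmoM2 it was 0.81 (adjusted p = 0.107).

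None of the other 5 measured genes of that domain passed the threshold (limma), at adjusted p-values of 0.509 or more. Cdkn1c, the cell cycle inhibitor p57, was at 11.84 ± 0.09 in wild type and at 11.72 ± 0.18 in SmoM2 (SD, n = 3). These groups overlapped (change -0.13, adjusted p = 0.741). Slc22a18, a membrane transporter, had a change of -0.04. Cd81, a tetraspanin, was at 13.14, 13.05 and 13.04 in wild type and at 13.004, 13.01 and 13.02 in SmoM2 (change -0.07, adjusted p = 0.812). Tssc4, a splicing factor, had a change of -0.11. Ascl2, a transcription factor of trophoblast and intestinal stem cells, was at 7.88, 7.69 and 8.02 in wild type and at 8.10, 7.94 and 8.22 in SmoM2, around the level of dim probe sets (change 0.22, adjusted p = 0.509). For Cd81, Tssc4 and Ascl2 imprinting is known mainly from the placenta. Of 3 trophoblast markers measured, the defining genes Tpbpa and Ctsq were below the level of dim probe sets and Plac1 above it. The summed signal of the 3 ran from 690 to 810 in wild type and from 697 to 815 in SmoM2.

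Nap1l5, a histone chaperone family member, is a retrogene inside an intron of Herc3 on chromosome 6 and is read from the paternal copy. It was at 8.58, 8.50 and 8.70 in wild type and at 8.92, 9.05 and 9.02 in SmoM2, with no overlap. The means of 8.60 ± 0.10 and 8.99 ± 0.07 (SD, n = 3) were 1.32-fold apart (log2 change 0.40, SE 0.08), and the call was marginal (limma adjusted p = 0.0496). It was lost without any array other than wild type 3 (adjusted p from 0.0778 to 0.244). With Y-linked signal in the fit as a covariate, the change was 0.35 (adjusted p = 0.661), and with wild type 3 alone against SmoM2 it was 0.30. Its host gene Herc3 had a change of -0.18 and did not pass (adjusted p = 0.558).

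The promoters of both genes that rose are printed so that they can be set beside those of the pair that fell (RefSeq, GRCm38.p6, 250 bases before to 50 after the start). Capitals mark TGCCGC, at 24 bases before the start and 28 bases into the gene in Nap1l5; none of the motifs searched was found in Phlda2.
Phlda2 promoter, chr7:143502475-143502774, minus strand: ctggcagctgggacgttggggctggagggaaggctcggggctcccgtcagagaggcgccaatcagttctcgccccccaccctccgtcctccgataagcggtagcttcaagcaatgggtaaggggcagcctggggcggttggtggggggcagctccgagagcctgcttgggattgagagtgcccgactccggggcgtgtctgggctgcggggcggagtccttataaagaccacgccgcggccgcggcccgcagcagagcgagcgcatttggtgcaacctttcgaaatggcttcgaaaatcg
Nap1l5 promoter, chr6:58907077-58907376, minus strand: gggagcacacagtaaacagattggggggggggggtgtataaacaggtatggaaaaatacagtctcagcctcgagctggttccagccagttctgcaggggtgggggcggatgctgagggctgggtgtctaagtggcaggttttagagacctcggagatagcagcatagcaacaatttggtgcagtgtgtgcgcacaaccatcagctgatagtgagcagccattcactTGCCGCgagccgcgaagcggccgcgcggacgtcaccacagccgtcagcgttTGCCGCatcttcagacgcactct

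Promoter windows were found for 39 of the 47 genes, 57 windows in all, and were searched on both strands for 4 motifs. GACCACCCA, the consensus site of the GLI factors of the hedgehog pathway, was in 0 of the 57 windows and in 0.253% of all 32851 windows of the same length. TGCCGC was in 24.6% of the windows of imprinted genes and in 11.6% of all. GGGGCCCC was in 7.02% against 1.08%, and GCCATNTT, the site of YY1, in 8.77% against 6.05%. The share for GGGGCCCC rests on 4 windows, and the single site shared by Peg3 and Usp29 is counted in both of theirs. The windows of imprinted genes were richer in CpG, with a median ratio of observed to expected CpG of 0.62 against 0.38, and the part of CpG content in these shares was not tested. A match describes letters in a window, not a bound site. No 2 motifs overlapped in the promoters printed here.

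**Figure D3:**
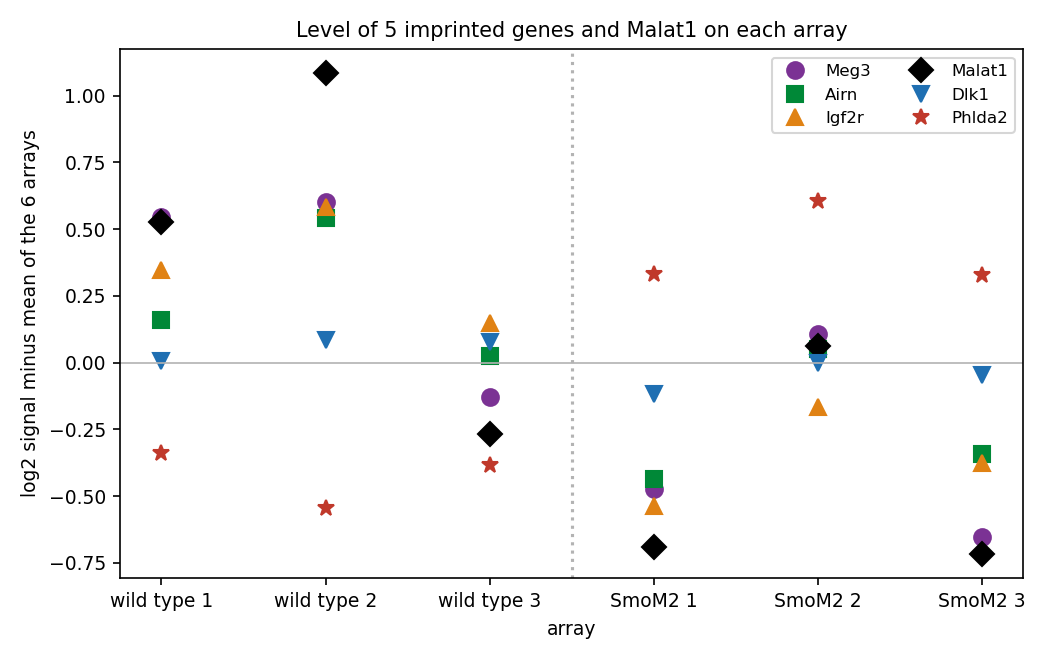
Log2 signal of the imprinted genes Meg3, Airn, Igf2r, Dlk1 and Phlda2 and of Malat1, each minus its mean over the 6 arrays. Meg3, Airn, Igf2r and Malat1 are higher on wild type 1 and 2 than on wild type 3 and are highest on SmoM2 2 among the SmoM2 arrays, while Dlk1 has the narrowest range of the 6.

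In the Dlk1-Dio3 domain of chromosome 12 the maternal RNA varied more than the paternal coding genes. Meg3, a long noncoding RNA read from the maternal copy, was at 11.63, 11.69 and 10.96 in wild type and at 10.61, 11.19 and 10.43 in SmoM2. Wild type 3 lay below SmoM2 2, so the groups overlapped, and the change of -0.68 (SE 0.22) did not pass (limma adjusted p = 0.276). Malat1, an abundant nuclear noncoding RNA that is not imprinted, was high on the same arrays: 11.78, 12.34 and 10.99 in wild type and 10.57, 11.32 and 10.54 in SmoM2. With the Malat1 level as a covariate, chosen after seeing the data, the change of Meg3 was -0.09, while that of Phlda2 was 0.87, of Zim1 -0.75 and of Peg3 -0.45 (adjusted p = 0.867, 0.0226, 0.0204 and 0.111). Meg3 passed in 3 of 19 alternatives (limma). These were without wild type 3 (change -0.92, adjusted p = 0.0437), with array weights (change -1.04, adjusted p = 0.00182) and with a replicate block.

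None of the 3 paternal genes of the domain passed (limma), and none had an unadjusted p under 0.05. Dlk1, a membrane protein of fetal mesenchyme related to Notch ligands, was at 13.27, 13.35 and 13.34 in wild type and at 13.15, 13.27 and 13.22 in SmoM2, a change of -0.11 (adjusted p = 0.664). Rtl1, a retrotransposon-derived gene needed in the placenta, had a change of -0.06. Dio3, which inactivates thyroid hormone, had a change of -0.11.

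The maternal RNA of this domain also carries a large set of microRNA genes, and 40 of the 61 that RefSeq places between Dlk1 and Dio3 had a probe set of their own. These read the hairpin gene and do not tell precursor from mature RNA, and 23 of the 40 were at or below the level of dim probe sets. None of the 40 passed (limma), 10 had an unadjusted p under 0.05, 33 had a negative change (82.5%, beside 49.2% of all genes), and the median was -0.20. The share of all genes with an unadjusted p under 0.05 was not counted, so nothing is read from the 10. In 3 of the 40 the groups did not overlap (7.5%, beside 15.7% of all genes). As for Meg3, 23 of the 40 were higher on wild type 1 and 2 than on wild type 3 and highest on SmoM2 2 among the SmoM2 arrays, an order held by 19.1% of all genes. Mir382 had the lowest change, from 9.30, 9.70 and 8.60 in wild type to 8.0, 8.90 and 8.01 in SmoM2 (-0.90, adjusted p = 0.276); SmoM2 1 and SmoM2 3 lay below the level of dim probe sets. Its mature forms are given to show what this hairpin yields, with the seed (bases 2 to 8) in capitals (RefSeq, GRCm38.p6, chromosome 12, plus strand, at chr12:109733781-109733802 and chr12:109733819-109733840 in the order shown); the seeds differ.
mmu-miR-382-5p: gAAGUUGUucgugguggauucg
mmu-miR-382-3p: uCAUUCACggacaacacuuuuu

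Airn and Igf2r, a pair that overlaps on opposite strands of chromosome 17, were both at lower values in SmoM2. Airn, a long noncoding RNA of the paternal copy, silences its neighbours in cis. It was at 11.13, 11.51 and 10.997 in wild type and at 10.53, 11.02 and 10.63 in SmoM2, with wild type 3 below SmoM2 2 (change -0.49, SE 0.15, adjusted p = 0.255). Igf2r, the maternally read receptor that removes growth factor, belonged to a further list of imprinted genes and fell 1.65-fold, from 11.59 ± 0.22 to 10.87 ± 0.19 (SD, n = 3; limma adjusted p = 0.0307). Its groups did not overlap, at 11.58, 11.81 and 11.38 against 10.70, 11.07 and 10.86. Without wild type 1, wild type 2, SmoM2 1 or SmoM2 3 Igf2r did not pass (adjusted p from 0.0921 to 0.164), and with the Malat1 level as a covariate its change was -0.42 and that of Airn -0.10 (adjusted p = 0.136 and 0.810). Slc22a2, a transporter of organic cations imprinted in placenta, had a change of 0.08.

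In the Peg10 domain of chromosome 6 all 5 genes measured had a negative change and 0 passed; Peg10 and Ppp1r9a had an unadjusted p under 0.05. Peg10, a retrotransposon-derived paternal gene, was at 13.42, 13.38 and 13.35 in wild type and at 13.13, 13.24 and 13.19 in SmoM2. The groups did not overlap, and the change was -0.19 (SE 0.07, adjusted p = 0.302). Ppp1r9a, which encodes the actin-binding protein neurabin, was at 9.61, 9.41 and 9.29 in wild type and at 9.09, 9.22 and 9.04 in SmoM2 (change -0.32, SE 0.09, adjusted p = 0.212). Neurabin is a neuronal protein, and the neuronal markers were lower on the same arrays; their part in it was not tested. Asb4, a subunit of a ubiquitin ligase, had tight replicates at 11.52 ± 0.02 and 11.42 ± 0.01 (SD, n = 3), a change of -0.11 (adjusted p = 0.634). Sgce, a sarcoglycan of the dystrophin complex, and Calcr, the calcitonin receptor, both had changes of -0.04.

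In the Mest and Snrpn domains 0 of 6 measured genes passed (limma), and 0 had an unadjusted p under 0.05. Mest, a paternal gene of fetal mesoderm, was at 13.76, 13.78 and 13.73 in wild type and at 13.71, 13.72 and 13.72 in SmoM2, without overlap but only -0.04 apart (adjusted p = 0.898). Copg2, a coat protein of vesicles whose gene overlaps that of Mest, had a change of -0.11, and the transcription factor gene Klf14 one of 0.15. Both passed with array weights, a setting in which 4110 of all 19938 genes were called. Ndn, a MAGE family protein of neurons and mesenchyme lost in Prader-Willi syndrome, was at 13.0005, 12.83 and 12.96 in wild type and at 12.99, 12.97 and 12.91 in SmoM2 (change 0.03, adjusted p = 0.954). Its neighbours Magel2, also a MAGE protein, and Mkrn3, a ubiquitin ligase that restrains puberty, had changes of 0.01 and -0.01. Standard errors of the genes in both clusters ran from 0.06 to 0.10.

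None of the genes described next passed in the fit as reported. Slc38a4, a paternally read amino acid transporter, was at 12.79, 12.83 and 12.84 in wild type and at 12.45, 12.60 and 12.57 in SmoM2. No value overlapped (change -0.28, SE 0.07), but it did not pass (limma adjusted p = 0.12). It passed among genes above the 75th percentile of signal (adjusted p = 0.0345), with an intensity trend in the variance (adjusted p = 0.0190) and with array weights (adjusted p = 0.00683). These were 3 of 19 alternatives. H13, a signal peptide peptidase with imprinted transcript forms, was at 11.91, 11.85 and 11.87 in wild type and at 11.70, 11.73 and 11.64 in SmoM2 (change -0.19, adjusted p = 0.313), while Mcts2, the retrogene inside it, had a change of 0.08. Grb10, an adaptor that restrains insulin signalling, was at 13.30 ± 0.04 and 13.16 ± 0.06 (SD, n = 3; change -0.14, adjusted p = 0.539). Gab1, an adaptor of receptor tyrosine kinases, had a change of -0.15, Sfmbt2, a polycomb protein, -0.13, and Trappc9, a vesicle tethering factor, -0.12.

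Several loci differed by less than 0.10. Plagl1, a zinc finger factor that regulates other imprinted genes, was at 13.02 ± 0.03 and 12.99 ± 0.01 (SD, n = 3; adjusted p = 0.921). Nnat, a membrane protein of developing neurons and endocrine cells, had a change of 0.03, and Blcap, the gene around it, 0.0023. Impact, a regulator of translation, had a change of -0.08, Inpp5f, a phosphoinositide phosphatase, 0.08, Rasgrf1, a Ras activator of neurons at the level of dim probe sets, 0.07, and Commd1, a copper and endosome factor, 0.02. In all, 4 genes had a mean at or below that level: Ascl2, Mkrn3, Calcr and Rasgrf1.

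Genes of both parental copies were among those that rose and those that fell. Of 22 paternal genes 1 rose (Nap1l5) and 1 fell (Peg3), with a median change of -0.05 and a range from -0.58 to 0.40. Of 19 maternal genes 1 rose (Phlda2) and 1 fell (Zim1), with a median of -0.11 and a range from -1.04 to 0.84. Negative changes made up 68.2% and 68.4% of the 2 sets, beside 49.2% of all genes. All 4 genes that changed belong to the 27 whose imprinting is known across tissues. The 7 measured genes imprinted mainly in placenta had changes from -0.32 to 0.22 and the 5 mainly in brain from -0.12 to 0.07. With 0.983% of all genes called, sets of this size are too small to compare by their calls.

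In 18 of the 41 genes (43.9%) the SmoM2 values did not overlap the wild type values, beside 15.7% of all genes. In 16 of these 18 SmoM2 was the lower group and in 2 the higher, beside 10.1% of all genes with SmoM2 lower and 5.64% with SmoM2 higher. Bright probe sets leaned the same way over the whole array. Among the 5760 genes above the 75th percentile of signal, 60.1% had a negative change and 14.7% were lower without overlap. Of the 21 imprinted genes above that level, 18 had a negative change and 12 were lower without overlap (57.1%). Most of these steps were small, and 14 of the 18 did not pass the threshold.

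Of 30 further genes reported as imprinted, 2 fell and 0 rose, Igf2r and Ddc. Ddc, which makes dopamine and serotonin and is imprinted in heart, was at 10.63, 10.31 and 10.39 in wild type and at 9.76, 9.96 and 9.57 in SmoM2. The groups did not overlap (change -0.68, SE 0.11, limma adjusted p = 0.0286). Ddc did not pass without wild type 1, wild type 2, SmoM2 1 or SmoM2 3 (adjusted p = 0.133, 0.0672, 0.105 and 0.141), after centring on the 75th percentile (0.0713), or with Y-linked signal or the Malat1 level as a covariate (0.363 and 0.170). Dbh, a later enzyme of the same pathway in enteric neurons, was among the 4 neuronal markers that fell. The third largest change of the list was that of Zdbf2, a paternal gene, at -0.38 (adjusted p = 0.353). Of 24 genes that regulate imprints, 0 passed (limma), 1 (Dnmt1) had an unadjusted p under 0.05, and the median change was -0.08. A negative change was seen in 18 of the 24 (75%, beside 49.2% of all genes). In 5 the groups did not overlap (20.8%, beside 15.7% of all genes), each with SmoM2 lower. Zfp57 and Dnmt1 are given for their roles, outside the rule for named genes. Zfp57, the reader of methylated imprints, was at 12.43 ± 0.09 and 12.35 ± 0.15 and Dnmt1 at 11.77 ± 0.06 and 11.58 ± 0.07 (SD, n = 3; adjusted p = 0.850 and 0.368). The largest changes were those of Dppa3, an oocyte factor at the level of dim probe sets (0.25), of Zfp445, a second reader (-0.20), and of Tet3, which oxidises methylcytosine (-0.19).

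**Figure D4:**
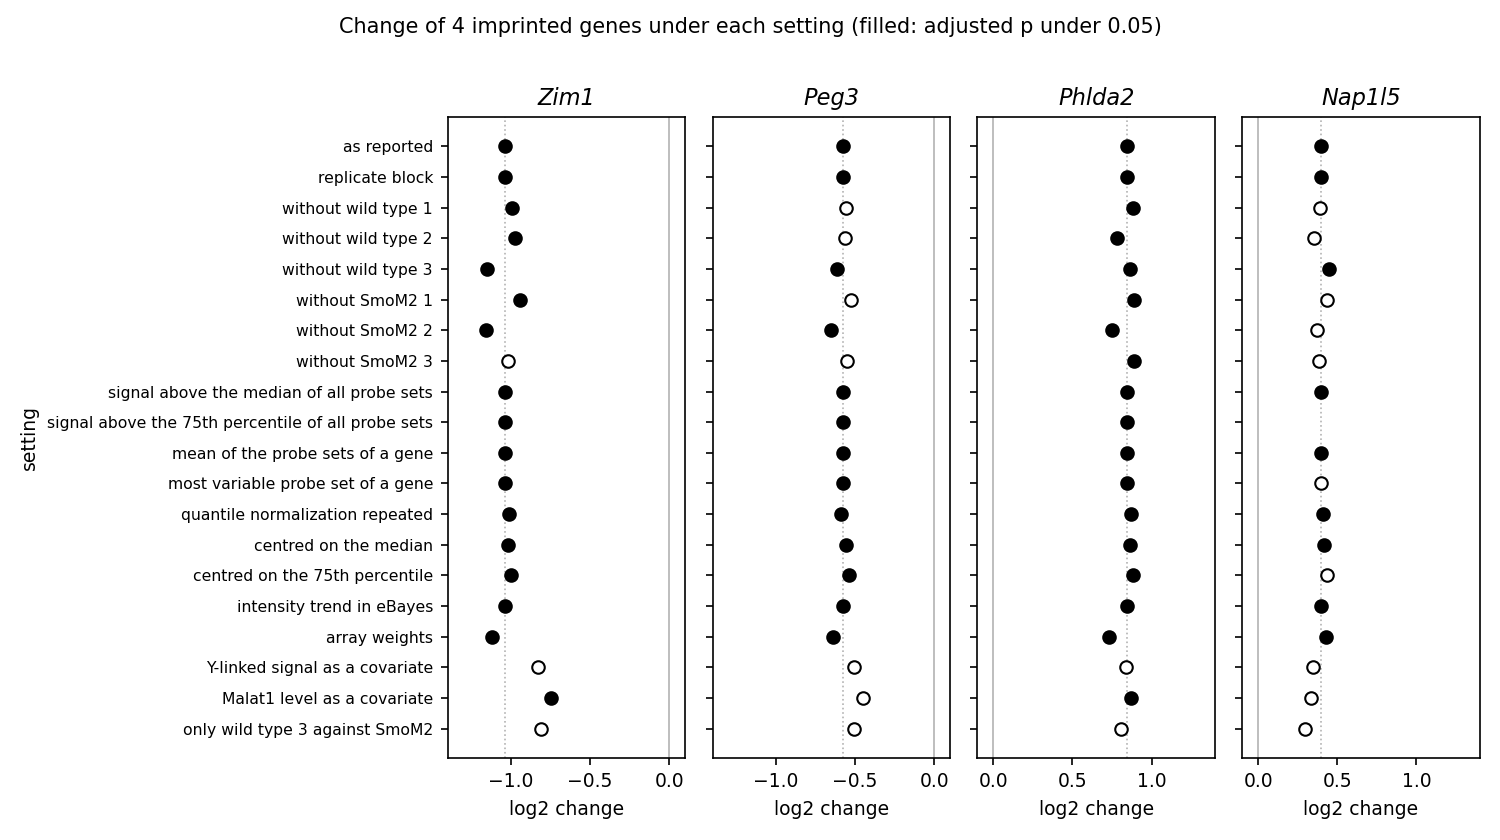
Log2 change of Zim1, Peg3, Phlda2 and Nap1l5 in the fit as reported and under each alternative setting, filled where the adjusted p was under 0.05. The replicate block, signal filters, choice of probe set and intensity trend could not alter the change of these genes, only its p-value. The sign is the same in every setting that held the gene; Phlda2 passed in 17 of 19 alternatives, Zim1 in 16 of 19, Peg3 in 12 of 19 and Nap1l5 in 8 of 18.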

How the data were processed

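RNA from 3 wild type and 3 SmoM2 stomach samples was read on 6 Affymetrix mouse gene arrays. The authors deposited log2 values per probe set, made with RMA and affy per the submitters' processing notes (versions and genome build: not given in the sources used here). Log2 signal ran from 3.79 to 14.72, with array medians from 8.56 to 8.62. Precision is limited by the number of arrays. Of 35556 probe sets, 21789 carried 1 gene symbol in the platform annotation, 1621 several, and 12146 were not listed. Genes were read from probe sets with 1 symbol, taking the highest mean over the 6 arrays where there were several, which left 19938 genes. Levels of different probe sets were set together for the dim level, the marker sums and the signal filters. They also picked the probe set of a gene and the brightest gene of a cluster. Beyond these uses, levels of different genes were not compared. SmoM2 and wild type were compared with limma 3.58.1 (lmFit and eBayes, R 4.3.3), and p-values were adjusted by Benjamini-Hochberg over all genes at a threshold of 0.05. The procedure was run on simulated data with independent noise for each gene. Variation shared by many genes on an array was not simulated, so that run does not vouch for the calls. An exact permutation test of 3 against 3 cannot go below 0.1.

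The imprinted genes, further lists and markers were chosen with earlier results of these data known, so counts over them are not independent evidence. Any imprinted gene could be named. Values on every array are given for those past the threshold, for the 8 largest changes among the others and for the brightest gene of each cluster with 3 or more measured; from the further lists, genes past the threshold and the 3 largest changes are named. Alternatives covered a replicate block, leaving out each array, signal filters, the choice of probe set, repeated quantile normalization, centring, an intensity trend, array weights and a Y-linked covariate. A Malat1 covariate and a fit with only wild type 3 against SmoM2 were chosen after seeing the data. Promoter and microRNA sequences came from RefSeq (GRCm38.p6).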

Additional observations from a re-analysis of the deposited data

How the results depend on the processing

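The median change of the imprinted genes kept its direction in every alternative run, and so did the changes of Zim1, Peg3, Phlda2, Nap1l5, Meg3, Airn, Igf2r and Ddc. For some settings this was fixed in advance. The replicate block, the intensity trend and the signal filters leave the change of a gene as it was. So does the choice of probe set for genes with 1 probe set, and these settings alter only the p-values. Counts of calls moved more. Over all genes 196 were called, and 336 with an intensity trend, 120 after centring on the 75th percentile, 4110 with array weights, 22 with a Y-linked covariate, 60 with the Malat1 level as a covariate, 8 with only wild type 3 against SmoM2 and 32 to 247 when an array was left out. Of the imprinted genes 4 were called, and 16 with array weights, 2 with the Malat1 covariate and 1 to 5 when an array was left out; with the Y-linked covariate limma called 0 (6 at an unadjusted p under 0.05) and with only wild type 3 also 0 (5 unadjusted). Of the further imprinted genes and regulators 2 were called, and 1 above the 75th percentile of signal, 1 after centring on it, 18 with array weights and 0 to 3 when an array was left out; limma called 0 with the Y-linked covariate, the Malat1 covariate and only wild type 3 (4, 6 and 3 unadjusted). The share of all genes at an unadjusted p under 0.05 was not counted in these settings, so nothing is read from the unadjusted counts. The change of Ascl2 was -0.0087 with the Malat1 covariate, a reversal. The cause of these shifts was not tested.

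The labels number replicates alike in both groups. Deviations of same-numbered arrays correlated at -0.10, 0.52 and 0.06, and 1 of 3 numbers correlated best with itself, so the numbers were not taken as pairs. With a replicate block 698 genes and 7 imprinted genes were called, Zim1, Peg3, Phlda2 and Nap1l5 with Meg3 (adjusted p = 0.000169), Airn and Ppp1r9a.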
